A study of Mus musculus with 6 samples.

Results

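The constitutive proteasome was measured as 35 genes with a symbol of the form Psma, Psmb, Psmc or Psmd and a number, leaving out the interferon-inducible subunits Psmb8, Psmb9 and Psmb10. They were chosen by symbol alone, through probe sets annotated to exactly 1 gene, and comprised 64 of the 20380 single-gene probe sets (35 of 12393 genes). Of these, 56 probe sets of 34 genes passed the filter on low signals and were tested, and the remaining gene was Psma8. RNA came from epididymal white adipose tissue (WAT) of male C57BL/6 mice aged 9 to 11 weeks, kept in a cycle of 12 hours of light and 12 hours of darkness. In the 3 timed sleep restriction (TSR) samples, mice had been kept awake by gentle handling for 6 hours a day (ZT0 to ZT6, the first part of the light phase) on 5 days. The 3 control samples came from mice left undisturbed, and all tissue was taken at ZT18, in the dark phase. Each sample was hybridised to 1 Affymetrix mouse array, and the values below are the authors' MAS5 signals on a linear scale. Whether a sample was 1 animal or a pool is not given in the sources used here, so p-values reflect no more than how these 6 samples vary, which may be technical.

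The proteasome is the large protease that degrades proteins tagged with ubiquitin. Its barrel-shaped core particle is built of alpha subunits (Psma), which form the outer rings and the gate, and beta subunits (Psmb), which form the inner rings and hold the proteolytic sites. The regulatory particle caps the barrel: its base contains a ring of ATPases (Psmc) that unfold and feed in the substrate, and its lid and remaining base subunits (most of the Psmd genes) bind and remove ubiquitin.

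The 6 arrays were alike in overall brightness, with median signals from 127 to 141, and correlated at 0.991 to 0.993 within and 0.962 to 0.965 between groups over tested probe sets. Of 6 adipocyte markers, 2 rose and 4 fell, with summed signals of 66775 to 80366 in control and 56292 to 66066 in TSR. All 6 macrophage markers fell (sums of 18734 to 19316 against 12837 to 12980), and in whole tissue fewer cells of a type and less RNA per cell cannot be told apart. Of 12 hepatocyte markers 8 rose, 1 (Cyp2e1) fell and 3, with all control arrays below the 25th percentile of their signals, were not tested. Without Cyp2e1, which made up most of the summed signal, the other 11 summed to 458 to 526 in control and 12097 to 12667 in TSR. Albumin (Alb), the main plasma protein made by the liver, gave 128, 98.0 and 161 on the control arrays and 3178, 3359.6 and 3077 on the TSR arrays. Of the 3 tested lymphocyte markers 1 rose and 2 fell, and of 4 endothelial markers 1 rose and 1 fell. None of 6 measured epididymis and testis markers passed the filter on low signals. Among them, Adam7 gave 3.68, 8.90 and 15.9 on the control arrays, all below the 25th percentile. On the TSR arrays it gave 46.4, 31.8 and 35.7, above every control array. The other measured markers of this list overlapped between groups. The 5′ signal of beta-actin minus its 3′ signal was -1.22 log2 units in control and -0.67 in TSR. For Gapdh this difference was -0.52 in control and 0.13 in TSR. For the bacterial control sequence r2-Bs-dap it was -4.25 and -2.73, while for BioC it was -0.23 and -0.39. All dap, lys, phe and thr control sequences shifted upward in TSR, by 0.39 to 1.5 log2 units. The BioC and BioD sequences and 18S ribosomal RNA shifted slightly downward (-0.16 to -0.032), BioB was mixed (0.68 and -0.32) and cre hardly shifted. The measured 5′ to 3′ balance of RNA or labelling thus differed between groups, in these mouse genes and in part of the bacterial control sequences. What part these differences had in the proteasome values was not tested.

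Core genes were mostly lower in TSR, and regulatory particle genes were higher or did not pass the test. With the brightest tested probe set standing for each gene, 8 of 14 core genes fell, 1 rose and 5 did not pass the test (limma, adjusted p under 0.05 over all probe sets), with a median log2 fold change of -0.19. Of 20 regulatory particle genes, 10 rose and 10 did not pass, with a median of 0.15. These 20, taken by symbol, include 3 assembly genes outside the finished particle (Psmd5, Psmd9 and Psmd10), of which 2 rose. They leave out the lid subunit Sem1, which fell. Among all 8619 genes, 24.0% rose and 23.0% fell, 47.0% changed in either direction, and the median was 0.010. Counted together, the 34 proteasome genes (11 higher and 8 lower) did not stand out, and the signals of 19 of them did not overlap between groups, near the 56.8% of all genes. Separately, 57.1% of the core genes fell, against the 23.0% of all genes, and 10 of 20 regulatory particle genes rose, against 24.0%. These shares of all genes take no account of signal. Of other genes with signals of 2000 to 4000, where 11 core genes lay, 36.9% fell. No regulatory particle gene was called lower by limma, while 1 (Psmc2) had an unadjusted p under 0.05 and was also called lower by the methods' t-test. With the replicate number as a block limma called 2 of them lower (Psmc2 and Psmc4), and after median centring 3 (Psmc2, Psmc4 and Psmd11). Most of these changes were small. The called decreases in the core lay between -0.14 and -0.38 on the log2 scale, the increase of Psmb7 was 0.35, and the increases in the regulatory particle lay between 0.13 and 0.96.

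The same fold changes can be read array by array. The median deviation of the core genes from their control mean was -0.01, 0.02 and 0.00 on the control arrays and -0.17, -0.18 and -0.22 on the TSR arrays (log2 units). The corresponding medians of the regulatory particle genes were -0.03, 0.04 and -0.01 in control and 0.13, 0.23 and 0.11 in TSR. Every TSR array therefore showed the same pattern, and the core median minus the regulatory particle median was -0.30, -0.40 and -0.33 in TSR. On the control arrays it was 0.02, -0.01 and 0.01. Small control values follow from setting each gene to its control mean, so these medians show the spread between TSR arrays and are no separate support.

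**Figure D1:**
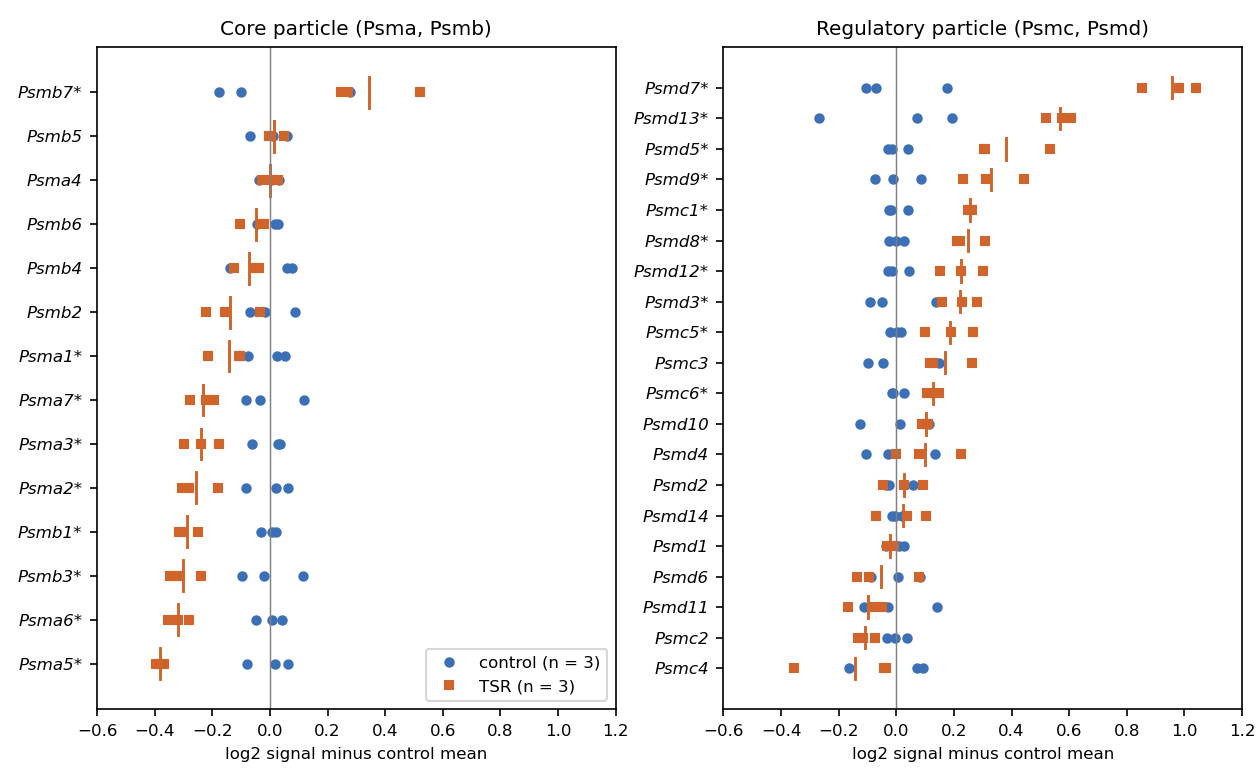
Deviation of each proteasome gene on each array from its control mean (x axis, log2 units). Genes are on the y axis in order of their log2 fold change within each particle. There are points for the 3 control and 3 TSR arrays, a vertical bar for the TSR mean and an asterisk for an adjusted p under 0.05. Most core genes lie to the left of 0 in TSR (8 of 14 called lower) and many regulatory particle genes to the right (10 of 20 called higher).

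Of the 7 tested alpha subunits, 6 fell. Psma5, the alpha subunit with the largest decrease by its brightest probe set, had signals of 4420.4, 4131 and 4561 on the control arrays and 3351, 3319 and 3381 on the TSR arrays. Its mean went from 4371 ± 219 to 3351 ± 31.2 (SD, n = 3), a log2 fold change of -0.38 (SE 0.048, adjusted p = 0.00026), and the TSR arrays lay closely together, far below the lowest control array. A dimmer Psma5 probe set also fell (-0.29, adjusted p = 0.0029), with signals of 1443, 1606 and 1440.2 in control and 1219, 1267 and 1170.3 in TSR. Psma6 gave 6649.8, 6901 and 7068 on the control arrays and 5503, 5656 and 5378 on the TSR arrays, again without overlap (-0.32, adjusted p = 0.00054). That probe set is of a design that can bind other transcripts, as is a dimmer one that also fell (-0.70, adjusted p = 0.0019). Neither of the 2 Psma6 probe sets without this mark passed. The brighter gave 3360.4, 2837 and 3392 in control and 3245, 3241 and 3159 in TSR (0.013, adjusted p = 0.89), with overlap. The dimmer ranged from 62.7 to 72.9 in control and from 39.7 to 60.9 in TSR (-0.47, adjusted p = 0.079), lower on every TSR array.

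Psma3, an alpha ring subunit, gave 5644, 5661 and 5299 on the control arrays and 4691, 4894 and 4494 on the TSR arrays. The lowest control array exceeded the highest TSR array, and the log2 fold change was -0.24 (SE 0.050, adjusted p = 0.0044). Psma2, another alpha ring subunit, gave 3006, 3329.9 and 3233 on the control arrays and 2577, 2816 and 2622 on the TSR arrays, with no overlap (-0.26, adjusted p = 0.0048). Psma7 showed the same order, with 2397, 2475 and 2754 in control and 2218, 2094 and 2178 in TSR (-0.23, adjusted p = 0.010), and its dimmer probe set fell too (-0.20, adjusted p = 0.010). Psma1 was at the edge of the threshold, at 2720.5, 2491 and 2673 in control and 2437, 2264 and 2441 in TSR (-0.14, adjusted p = 0.049). Its call was lost without any 1 of control arrays 1 and 3 and TSR arrays 1, 2 and 3 (adjusted p = 0.16, 0.12, 0.080, 0.15 and 0.057), and its other probe sets had log2 fold changes of 0.28 and 0.41 that did not pass. Psma4 was the tested alpha subunit that did not pass, and its signals were 2441, 2486 and 2370.4 on the control arrays and 2443, 2479 and 2383 on the TSR arrays. The interval of its log2 fold change reached from -0.092 to 0.096. Psma8, the testis-specific alternative to Psma7, was at the bottom of the signal range, with 26.8, 10.3 and 20.5 in control and 21.3, 12.3 and 2.75 in TSR, below the 25th percentile on 2 control and 3 TSR arrays.

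The beta ring was mixed, with 2 genes lower, 1 higher and 4 not passing. Both called decreases were in subunits without a proteolytic site. Psmb1 gave 3006, 3084 and 3115 on the control arrays and 2486, 2466 and 2583 on the TSR arrays, so that all TSR arrays lay below all control arrays. Its log2 fold change was -0.29 (SE 0.041, adjusted p = 0.00057). Psmb3 gave 3054, 3358 and 2899 on the control arrays and 2484, 2622 and 2438 on the TSR arrays, again separated between groups, with a log2 fold change of -0.30 (SE 0.060, adjusted p = 0.0034). Its second probe set fell as well (-0.13, adjusted p = 0.049). Psmb2 (-0.14, adjusted p = 0.095) and Psmb4 (-0.071, adjusted p = 0.38), also structural members of the beta ring, did not pass. Without TSR array 2, Psmb2 passed (adjusted p = 0.036), and without control array 2, Psmb4 passed (adjusted p = 0.045).

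The 3 catalytic beta subunits did not follow the falling alpha subunits. Psmb5, which carries the chymotrypsin-like site, gave 2012, 2084 and 1905 on the control arrays and 1993, 2067 and 2002 on the TSR arrays. These values overlapped, and the log2 fold change was 0.016 with a 95% interval from -0.091 to 0.12. Psmb6, which carries the caspase-like site, gave 2493, 2478 and 2373 on the control arrays and 2415, 2407 and 2279 on the TSR arrays, with an interval from -0.15 to 0.052. Psmb7, which carries the trypsin-like site, was the only core gene called higher, at 739, 963 and 701 in control and 956, 1138 and 941 in TSR (0.35, adjusted p = 0.042). Its groups overlapped, since control array 2 exceeded TSR arrays 1 and 3. The Psmb7 call was lost without control array 1 (adjusted p = 0.13), control array 3 (0.13), TSR array 1 (0.063) or TSR array 2 (0.14).

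Of the 6 ATPases of the base, 3 rose. Psmc1 varied least among the TSR arrays, at 1199, 1249 and 1194 on the control arrays and 1444, 1458 and 1451 on the TSR arrays. Its mean went from 1214 ± 30.6 to 1451 ± 7.14 (SD, n = 3), a log2 fold change of 0.26 (SE 0.042, adjusted p = 0.0012). Psmc5 gave 1284, 1319 and 1305 in control and 1485, 1568 and 1397 in TSR (0.19, adjusted p = 0.017). Psmc6 gave 1564, 1557 and 1605 in control and 1719, 1744 and 1697 in TSR (0.13, adjusted p = 0.030). In both of these ATPases every TSR array lay above every control array. The Psmc5 call was lost without control array 1 (adjusted p = 0.057), TSR array 1 (0.053) or TSR array 2 (0.056), and the Psmc6 call without control array 1 (0.088), control array 2 (0.067), TSR array 1 (0.086) or TSR array 2 (0.082). Psmc3 (0.17, adjusted p = 0.079) did not pass, but did so without control array 3 (adjusted p = 0.014). The brighter probe sets of Psmc2 (-0.11, adjusted p = 0.061) and Psmc4 (-0.14, adjusted p = 0.26) lay below 0 without passing. The dimmer Psmc4 probe set went the other way, with 789, 792 and 805 on the control arrays and 985, 1011 and 1012 on the TSR arrays (0.33, adjusted p = 0.00036).

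The largest change of a proteasome gene by its brightest probe set was in the lid. Psmd7, a structural partner of the lid's deubiquitinase, gave 382, 464 and 392 on the control arrays and 811, 844 and 742 on the TSR arrays. Its mean went from 412 ± 44.6 to 799 ± 51.8 (SD, n = 3), and the log2 fold change was 0.96 (SE 0.085, adjusted p = 3.9e-05). The second Psmd7 probe set, which was dimmer, gave 69.2, 89.5 and 108 in control and 99.0, 76.5 and 93.9 in TSR and did not pass (0.028, adjusted p = 0.92), so that the increase rested on 1 of 2 probe sets. Psmd13, a scaffold subunit of the lid, gave 352, 383 and 278 on the control arrays and 499, 509 and 480.4 on the TSR arrays. No control array reached the lowest TSR array (0.57, adjusted p = 0.0029), and the second Psmd13 probe set rose as well (0.45, adjusted p = 0.0097).

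Of the 8 tested lid genes, 5 rose and 3 did not pass, and the median log2 fold change was 0.22. Psmd8 gave 1608, 1667 and 1639 in control and 1911, 2028 and 1898 in TSR (0.25, adjusted p = 0.0020). Psmd12 gave 1348, 1419 and 1364 in control and 1694, 1609.6 and 1529.6 in TSR (0.23, adjusted p = 0.0062). In both scaffold subunits the groups were separate. Psmd3 gave 737, 840.2 and 717 in control and 893, 926 and 852 in TSR (0.22, adjusted p = 0.026), but this call was lost without control array 1 (adjusted p = 0.086), control array 3 (0.083), TSR array 1 (0.071) or TSR array 2 (0.084). Psmd14, the deubiquitinase itself, gave 3169, 3097 and 3117 on the control arrays and 3356, 3211 and 2979 on the TSR arrays. Its interval of -0.093 to 0.14 contained 0, in contrast to its partner Psmd7. For Psmd6 (-0.051, adjusted p = 0.56) and Psmd11 (-0.098, adjusted p = 0.26) the brightest probe set did not pass, and a dimmer one rose in each, by 0.12 for Psmd6 (adjusted p = 0.037) and by 0.21 for Psmd11 (adjusted p = 0.012).

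The 3 Psmd genes of the base that are no ATPases did not pass with their brightest probe set. Psmd1 and Psmd2 are the large scaffold and docking subunits, with log2 fold changes of -0.021 and 0.025. Psmd4, a ubiquitin receptor, had a log2 fold change of 0.10 (adjusted p = 0.30) by its brighter probe set. Its dimmer probe set gave 862, 929 and 995 on the control arrays and 1313, 1261 and 1326 on the TSR arrays (0.49, adjusted p = 0.00023), and the interval of 0.35 to 0.62 did not reach the estimate of the brighter one. Of the 3 genes whose products help to assemble the base and are not part of the finished particle, 2 rose. Psmd5 gave 606, 636 and 612 in control and 763, 895 and 764 in TSR (0.38, adjusted p = 0.0022). Psmd9 gave 224, 250.3 and 234 in control and 277, 320.5 and 293 in TSR (0.33, adjusted p = 0.013). Neither overlapped between groups, while Psmd10 (0.10, adjusted p = 0.32) did not pass.

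Counted by probe set, the picture was the same in direction. In the core 1 of 25 tested probe sets rose and 12 fell, and in the regulatory particle 16 of 31 rose and 15 did not pass, against 25.6% higher and 21.0% lower among all tested probe sets. Of the 15 genes with several tested probe sets, 6 had the same call in each, 9 had a mixture of called and not called, and no gene had calls in both directions. In 11 of these 15 genes the second-brightest probe set lay above the brightest one in log2 fold change, and the median difference was 0.11. In Psma6, Psmc4, Psmd4 and Psmd7 the size of the change depended on which probe set was read.

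**Figure D2:**
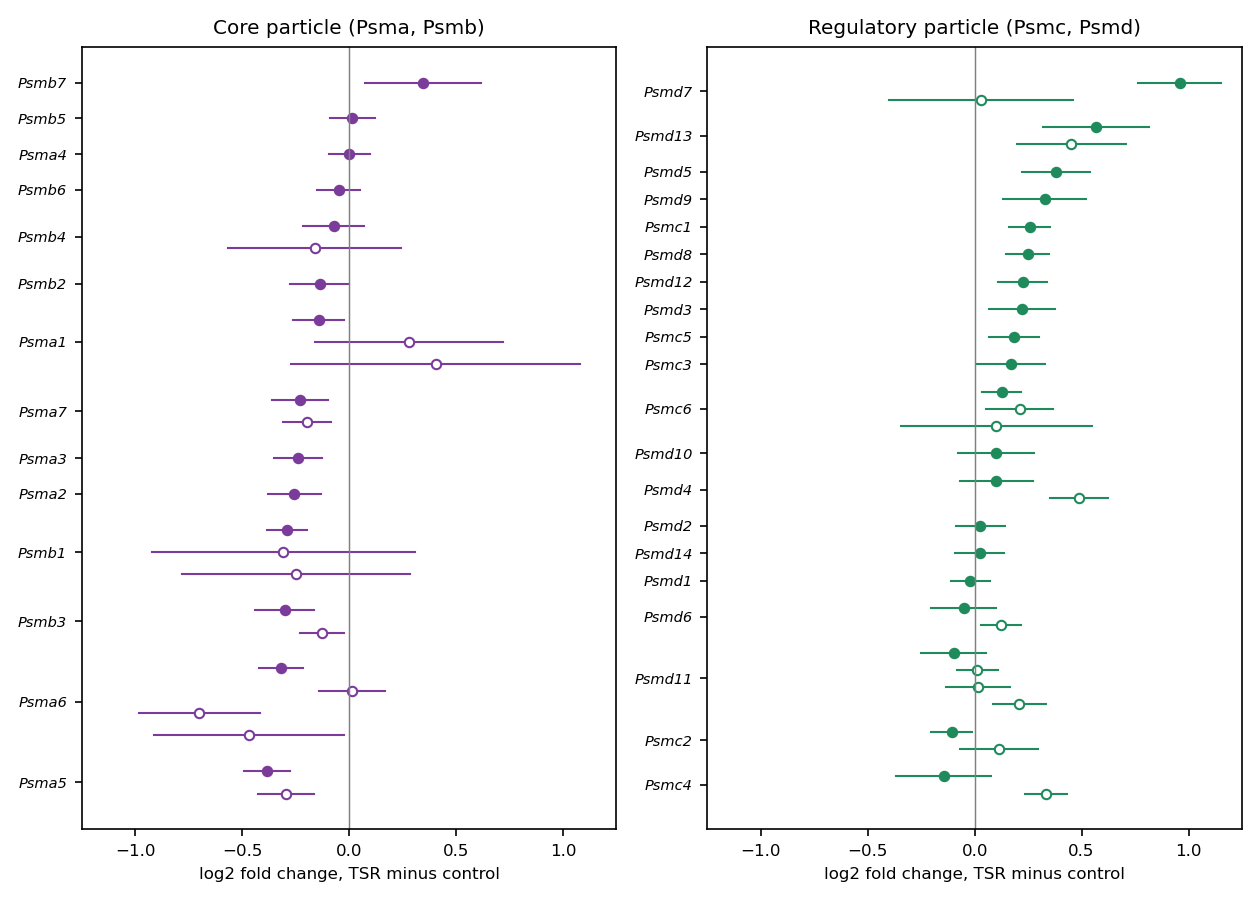
Log2 fold change of TSR against control with its 95% interval (x axis) for each of the 56 tested proteasome probe sets, grouped by gene on the y axis, with a filled marker for the brightest probe set of a gene and open markers for the others. Psma6, Psmc4, Psmd4 and Psmd7 are among the genes that have probe sets with separate intervals, and in the core 12 of 25 probe sets were called lower.

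The change of a proteasome gene also went with its brightness. Across the 34 genes the mean log2 signal and the log2 fold change correlated at r = -0.78 (rho = -0.87), with -0.79 within the core and -0.69 within the regulatory particle. Across the 8585 other genes r was -0.09, but 4637 of them had signals below 500, where no core gene lay. These are descriptions over genes that share the same 6 arrays, not independent replicates. Their signal ranges overlapped in part: 11 core and 13 regulatory particle genes lay between 1000 and 4000. In that range 54.5% of the core genes fell (median -0.14), 38.5% of the regulatory particle genes rose (median 0.10), and of 1807 other genes 25.4% rose and 29.8% fell (median -0.026). Within it, however, the core genes lay at 2000 to 4000 and most regulatory particle genes at 1000 to 2000. At 2000 to 4000, 6 of 11 core genes fell with a median of -0.14, none of 5 regulatory particle genes (Psmc4, Psmd2, Psmd6, Psmd11 and Psmd14) passed, with a median of -0.051, and the median of 621 other genes was -0.075, with 36.9% lower. At 1000 to 2000, where no core gene lay, 5 of 8 regulatory particle genes rose with a median of 0.18, against 29.1% of 1186 other genes, whose median was 0.0059. Above 4000, Psma3 and Psma6 fell, as did 55.9% of 479 other genes, whose median was -0.19. Psmc2, the regulatory particle gene in this range, had -0.11 and did not pass. Below 1000, Psmb7 rose like the 3 regulatory particle genes between 500 and 1000 (Psmd3, Psmd5 and Psmd7), against 30.5% of other genes there.

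Scalings that act on the brightness of all probe sets of an array gave a narrower split. They do not adjust for the slope within the proteasome genes (r = -0.78). After quantile normalization the core median was -0.13 and that of the regulatory particle 0.14. After a cyclic loess between arrays, which was added once these values had been seen, the medians were -0.10 and 0.16, with 7 core genes lower and 9 regulatory particle genes higher. The part of the signal in the remaining difference was not tested.

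**Figure D3:**
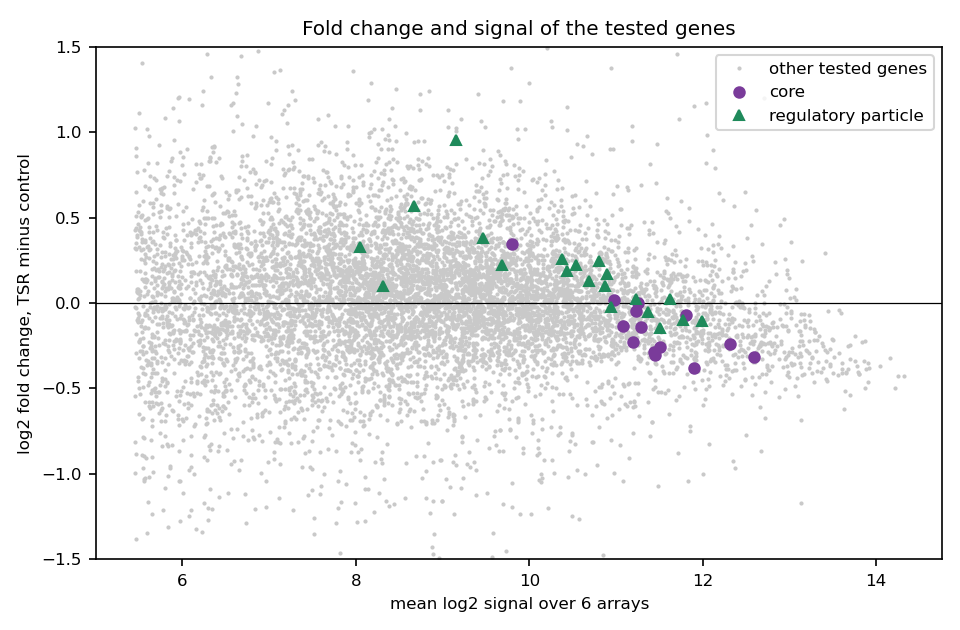
Mean log2 signal over the 6 arrays (x axis) against the log2 fold change of TSR over control (y axis) for core genes, regulatory particle genes and all other tested genes, of which 93 beyond ±1.5 are not drawn. Most bright core genes lie below 0 and dim regulatory particle genes above 0 (r = -0.78 over 34 genes). Over all other genes r was -0.09, though their median also went down with signal, from 0.0059 at 1000 to 2000 to -0.19 above 4000.

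The inducible counterparts of the catalytic subunits all fell. Psmb8 replaces Psmb5 in immunoproteasomes and gave 1025, 997 and 1025 on the control arrays and 593, 661 and 529 on the TSR arrays (-0.78, adjusted p = 7.1e-05). Psmb9, which replaces Psmb6, gave 921, 922 and 883 on the control arrays and 428, 474 and 530.1 on the TSR arrays (-0.93, adjusted p = 2.6e-05). Psmb10, which replaces Psmb7, gave 882, 933 and 954 on the control arrays and 746, 782 and 752 on the TSR arrays (-0.28, adjusted p = 0.0021). All 3 were separate between groups, and Psmb9 had the largest decrease of them. The change of each inducible gene minus that of its counterpart was -0.79 for Psmb8 and Psmb5, -0.89 for Psmb9 and Psmb6 and -0.63 for Psmb10 and Psmb7. The exact permutation p of each of these 3 differences was 0.1 (two-sided), the smallest that 3 arrays against 3 allow, and 0.1 after adjustment over the 3. The macrophage markers fell in the same samples, as given above, and their part in these differences was not tested.

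**Figure D4:**
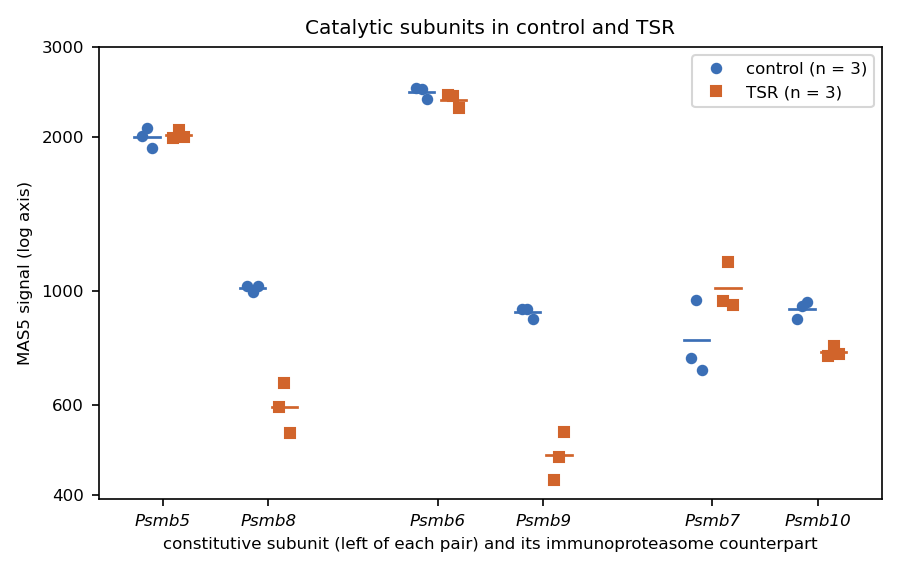
MAS5 signal on each array (y axis, log scale) of the constitutive subunits Psmb5, Psmb6 and Psmb7 and of their inducible counterparts Psmb8, Psmb9 and Psmb10, with points for control and TSR arrays and bars for group means. The inducible subunits were lower on every TSR array than on any control array, while the points of Psmb5, Psmb6 and Psmb7 overlap between groups.

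Genes around the proteasome were called in both directions, as were 47.0% of all genes (24.0% higher and 23.0% lower). Of the activators and inhibitors that bind the end of the barrel, Psme3 rose (0.28, adjusted p = 0.017) and Psme1 fell (-0.12, adjusted p = 0.043), and Psme4 and Psmf1 did not pass. Of 6 measured genes listed as assembly factors, which comprise chaperones of the core and the proteasome adaptor Ecpas, Pomp (-0.25, adjusted p = 0.0031), which matures the beta ring, and Psmg4 (-0.31, adjusted p = 0.035) fell, and 4 did not pass. Sem1, a small lid subunit without a Psmd symbol, fell (-0.41, adjusted p = 0.00027), whereas the called lid genes with a Psmd symbol rose. Usp14, a deubiquitinase that binds to the base, rose (0.43, adjusted p = 0.013). Of the factors that control transcription of proteasome genes, Nfe2l1 showed a log2 fold change of 0.014 (adjusted p = 0.93). Nfe2l2 rose (0.22, adjusted p = 0.0022), and Ngly1, the enzyme that removes sugar chains from Nfe2l1 protein, fell (-0.16, adjusted p = 0.015).

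Of 8 measured genes that deliver ubiquitinated proteins or extract them from complexes, 4 rose, 2 fell and 2 did not pass. For comparison, 24.0% of all genes rose and 23.0% fell. Ufd1, a cofactor of the segregase Vcp, rose by 0.57 on the log2 scale, the shuttle Rad23b by 0.52, the autophagy receptor Sqstm1 by 0.46 and the shuttle Ubqln4 by 0.38. The related shuttles Ubqln2 and Ubqln1 had log2 fold changes of -0.27 and -0.13 and were called lower. Vcp itself had an adjusted p of 0.99. No ubiquitin or E1 gene of the 6 listed had a probe set with a single symbol, and these were not analysed here.

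Promoter sequences are shown because genes of one complex moved in different directions. RefSeq windows of 300 bases (250 before and 50 after the start, build GRCm38.p6) were matched by symbol for 28 of the 35 genes, which gave 30 windows. Motifs were looked for on both strands after the expression values were known, and a match describes letters and not a bound site. In the sequences shown, capitals mark CCAAT (or ATTGG) and the ETS core CCGGAAG (or CTTCCGG), and everything else is in lower case. The sequences are a selection, and rising genes without the ETS core are named after them. The falling core genes Psma3 (chr12:70974373-70974672, plus strand) and Psmb3 (chr11:97703184-97703483, plus strand) hold CCAAT, Psma5 (chr3:108256676-108256975, plus strand), which fell most, and Psmb5 (chr14:54617946-54618245, minus strand), which did not pass, hold neither, and the rising Psmd13 (chr7:140882144-140882443, plus strand), Psmd12 (chr11:107479278-107479577, plus strand) and Psmc1 (chr12:100109952-100110251, plus strand) hold the ETS core, and Psmc1 also holds CCAAT.
Psma3: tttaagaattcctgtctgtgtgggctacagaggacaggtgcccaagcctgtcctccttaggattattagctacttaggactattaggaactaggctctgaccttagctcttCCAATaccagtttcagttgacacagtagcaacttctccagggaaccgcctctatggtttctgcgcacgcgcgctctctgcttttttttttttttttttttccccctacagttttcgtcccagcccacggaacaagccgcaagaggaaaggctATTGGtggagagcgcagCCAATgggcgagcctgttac
Psmb3: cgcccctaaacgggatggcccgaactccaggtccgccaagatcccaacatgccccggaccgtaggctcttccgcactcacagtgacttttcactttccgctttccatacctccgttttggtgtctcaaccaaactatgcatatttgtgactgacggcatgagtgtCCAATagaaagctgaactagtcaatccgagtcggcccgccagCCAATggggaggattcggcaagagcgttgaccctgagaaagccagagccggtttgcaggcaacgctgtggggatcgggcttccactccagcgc
Psma5: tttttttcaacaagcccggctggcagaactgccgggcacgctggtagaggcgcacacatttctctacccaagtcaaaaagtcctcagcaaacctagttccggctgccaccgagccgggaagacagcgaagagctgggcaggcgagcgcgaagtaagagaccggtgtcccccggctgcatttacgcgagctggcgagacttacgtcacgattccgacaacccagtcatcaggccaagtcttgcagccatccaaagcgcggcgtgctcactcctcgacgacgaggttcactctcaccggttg
Psmb5: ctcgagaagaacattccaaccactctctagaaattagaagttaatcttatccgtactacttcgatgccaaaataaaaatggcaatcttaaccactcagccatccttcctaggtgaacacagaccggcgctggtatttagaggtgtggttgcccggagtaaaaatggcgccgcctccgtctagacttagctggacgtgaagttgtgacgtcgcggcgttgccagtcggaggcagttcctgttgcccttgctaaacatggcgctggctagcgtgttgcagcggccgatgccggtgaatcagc
Psmd13: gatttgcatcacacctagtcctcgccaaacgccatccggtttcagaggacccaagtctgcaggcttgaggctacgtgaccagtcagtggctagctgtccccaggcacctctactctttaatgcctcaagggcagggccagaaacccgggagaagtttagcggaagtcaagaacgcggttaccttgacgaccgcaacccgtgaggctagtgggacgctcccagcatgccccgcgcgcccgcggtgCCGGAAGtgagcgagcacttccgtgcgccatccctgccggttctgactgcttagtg
Psmd12: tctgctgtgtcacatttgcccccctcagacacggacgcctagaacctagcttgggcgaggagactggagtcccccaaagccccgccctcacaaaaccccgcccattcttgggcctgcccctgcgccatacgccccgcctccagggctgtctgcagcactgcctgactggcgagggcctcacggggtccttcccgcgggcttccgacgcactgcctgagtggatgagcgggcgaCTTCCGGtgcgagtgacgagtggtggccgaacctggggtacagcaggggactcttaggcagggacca
Psmc1: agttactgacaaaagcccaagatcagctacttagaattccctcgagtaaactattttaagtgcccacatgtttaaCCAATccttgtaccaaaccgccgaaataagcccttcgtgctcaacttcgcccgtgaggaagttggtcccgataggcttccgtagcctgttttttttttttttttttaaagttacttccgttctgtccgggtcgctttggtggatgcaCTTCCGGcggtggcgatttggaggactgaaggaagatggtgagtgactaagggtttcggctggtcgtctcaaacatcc

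CCAAT was in 6 of 12 core windows and 27.8% of 18 regulatory particle windows, against 36.9% of the windows of tested genes and 37.4% of all windows. All 6 core genes with CCAAT in a window (Psma1, Psma2, Psma3, Psma6, Psma7 and Psmb3) were called lower, as was 1 of the 5 without it (Psma5, beside Psma4, Psmb4, Psmb5 and Psmb6). For Psma6 the letters were in only 1 of its 2 windows. As given above, the call of Psma1 was lost without single arrays, and that of Psma6 depended on the probe set. Psmb1, which was called lower, Psmb7, which was called higher, and Psmb2 had no window. Of 5 regulatory particle genes with CCAAT, 1 rose, none fell and 4 did not pass, and of 12 without it, 7 rose and 5 did not pass. How many of all tested genes with CCAAT were called was not counted, so these counts have no background to be read against. The ETS core was in 55.6% of regulatory particle windows and 8.33% of core windows, against 17.3% in tested genes and 8.86% in all windows. Within the regulatory particle 4 of 9 genes with it rose, as did 4 of 8 without it (Psmc5, Psmd5, Psmd8 and Psmd9). The 1 core gene with it, Psma6, was called lower. Psmd7 and Psmd3, which rose, and Psmc3 had no window. The antioxidant response element TGACNNNGC was in 16.7% of the windows of each particle, against 14.2% in tested genes. It was found in Psmb5 and Psmb6 of the core, which did not pass, and in Psmc6, Psmd9 and Psmd12 of the regulatory particle, which rose. The E-box CACGTG was in 8.33% of core and 5.56% of regulatory particle windows (9.98% in tested genes). The GC box GGGCGG was in 41.7% and 72.2% (62.9% in tested genes). Matches of different motifs shared letters only in Psmd9, where an antioxidant response element ran into a GC box.

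The split between the particles kept its sign in each of 13 alternative settings (-0.38 to -0.26). Among these, the stricter filter and the signal floor could not move it, since the probe sets used lay above both cut-offs. The genes that kept their call in all 18 settings tried were Psma2, Psma3, Psma5, Psmb3, Psmc1, Psmd5, Psmd7 and Psmd13, which is 8 of the 19 called. Centring each array on its median moved all genes: the median of all tested probe sets went from 0.035 to -0.071, and 10 core genes were then lower with none higher, while 4 regulatory particle genes were higher and 3 (Psmc2, Psmc4 and Psmd11) lower. The counts of falling and rising genes thus depended on where 0 was set. The core median less the regulatory particle median (-0.33) is not moved by such a shift, by its construction.

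**Figure D5:**
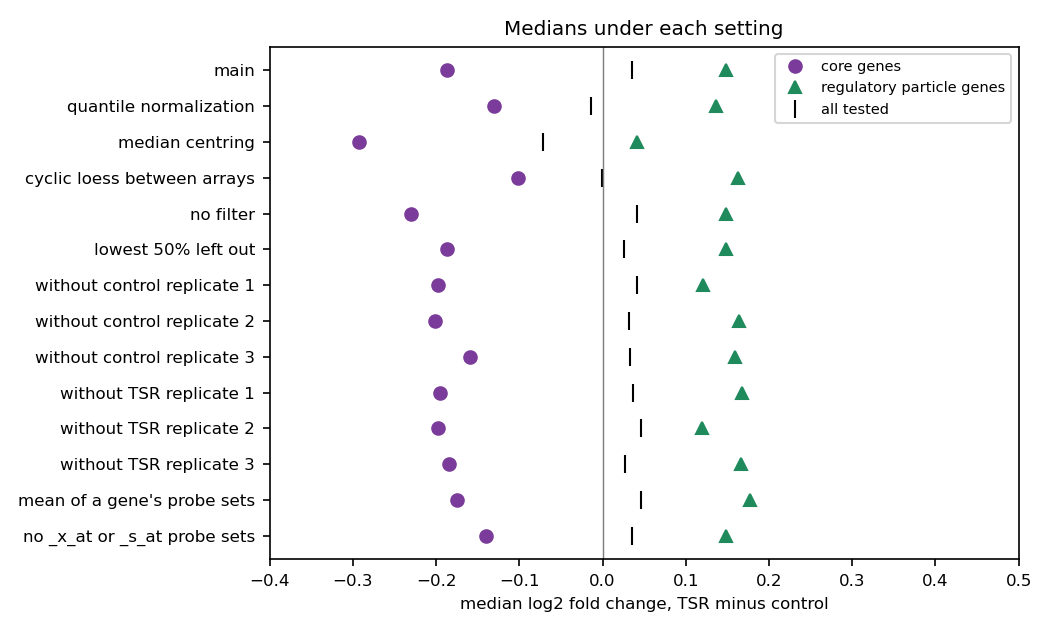
Median log2 fold change of TSR against control (x axis) of core genes, regulatory particle genes and all tested probe sets under the settings named on the y axis. The core median stays to the left of the regulatory particle median in each setting drawn, and centring on the array median moves all of them to lower values.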

How the data were processed

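The 6 arrays of epididymal WAT were compared, 3 per group. The deposited values are MAS5 signal intensities, linear and scaled per array by the authors, for 22690 probe sets. The signals were taken to log2 without further scaling. Probe sets for controls (64) were left out, as were the dimmest 35% of the rest (mean log2 signal below 5.45). The remaining 14707 probe sets were tested with limma 3.58.1 in R 4.3.3 (eBayes with intensity trend, two-sided, Benjamini-Hochberg, threshold 0.05), and the procedure was tested on simulated data. In the simulation, where few probe sets were changed, 47 of 100 changes of 0.5 log2 units were recovered, and 89 of 100 changes of 1. A gene that did not pass is therefore not shown to be unchanged. The brightest tested probe set stood for each gene. Genes were named through the platform annotation. All proteasome genes could be named. The surrounding lists were to be given in counts, with up to 3 genes per list named, by largest absolute log2 fold change past the threshold. The text names more genes than this from the list of shuttles and Vcp, and some genes that did not pass. It gives the COP9, eIF3 and CCT lists in counts only. The members, lists and rules were chosen with earlier results of these data known. Depth does not apply to arrays, so their number limits the precision. Alternatives were the methods' t-test, limma without trend, quantile normalization, median centring, no filter, a stricter filter, a signal floor, averaging all probe sets of a gene, a replicate block and leaving out each array. A cyclic loess and leaving out probe sets marked _x_at or _s_at were chosen after seeing the data. The arrays carried no batch information in the table. Motifs were searched with Python 3.11.15.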

Additional observations from a re-analysis of the deposited data

How the results depend on the processing

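The difference between the core and regulatory particle medians (-0.33) was -0.27 after quantile normalization, -0.26 after cyclic loess, -0.38 with no filter, which let in Psma8, and -0.29 without probe sets marked _x_at or _s_at. Leaving out 1 array gave -0.37 to -0.32. Median centring left 4 proteasome genes higher in place of 11 and 13 lower in place of 8, and 2452 of all probe sets higher in place of 3768, with 4363 lower in place of 3082. Leaving out 1 array gave 7 to 11 higher and 7 to 9 lower proteasome genes, and 3075 to 3551 higher and 2525 to 2840 lower probe sets. The lowest count of higher genes, 7, came without control array 1, TSR array 1 or TSR array 2. Psma1 turned to 0.18 (adjusted p = 0.36) with the mean of its probe sets, and Psma6 to 0.013 (adjusted p = 0.89) without _x_at and _s_at probe sets. The methods' t-test called 8 proteasome genes higher and 7 lower. With the replicate block, 12 were higher and 11 lower (4043 and 3391 of all probe sets). Deviations of same-numbered arrays correlated at 0.015, 0.19 and 0.18, so the numbers were not treated as pairs. Control arrays 2 and 3 each correlated best with the TSR array of their own number, while control array 1 did not. Whether same-numbered arrays shared a batch is not known from these values. The 5′ to 3′ balance, the signal range and 3 arrays per group limit the small changes.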

Other observations

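Complexes related in architecture to the proteasome gave their own values. The COP9 signalosome, which resembles the lid and regulates cullin ubiquitin ligases, had 3 of 9 genes higher and 6 that did not pass, with a median log2 fold change of 0.14. Of 11 measured eIF3 genes, members of a translation initiation complex that shares the lid's fold, 4 rose, 3 fell and 4 did not pass (median -0.031). Of the 8 genes of the CCT chaperonin, a ring complex with no part in proteolysis, 3 fell and 5 did not pass (median -0.035). Among all genes 24.0% rose and 23.0% fell.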
